A study of Homo sapiens with 8 samples.

Results

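The hairpin shPTK7-2 was compared with control hairpins in the human non-small cell lung cancer lines NCI-H1299 (H1299) and NCI-H2009 (H2009). The comparison held 6 of the 8 arrays of the study, chosen by their titles: 1 array with shPTK7-2 in each line (2 arrays) and, as controls, 1 array with shGFP and 1 with shLUC in each line (4 arrays). shGFP and shLUC target the genes of green fluorescent protein and luciferase, which these cells lack. All cultures were grown in RPMI with serum, infected with a lentivirus carrying the hairpin for 2 days and selected with puromycin for 2 days, and RNA was collected at day 4, so infection and puromycin were shared by the controls. The 2 arrays with the other PTK7 hairpin, shPTK7-1, were used for a direct comparison only. Each combination of hairpin and line was measured once. With the same shPTK7-2 hairpin in both lines, what follows from less PTK7 and what follows from this hairpin by another route cannot be told apart in these 6 arrays. Since no label mentions repeated cultures, p-values cover only how these arrays spread, which may be technical.

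PTK7 encodes a cell surface protein with immunoglobulin-like domains and a kinase domain without catalytic activity. It belongs to the planar cell polarity branch of Wnt signalling, in which Frizzled, ROR and VANGL proteins at the membrane orient cells and their movements through DVL and JNK, and it also touches the canonical branch, in which beta-catenin drives target genes. A short hairpin RNA is cut by DICER1 to a small RNA that an Argonaute protein uses to find and silence messages.

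Expression was given as a log2 value per gene, so a difference of 1 is a 2-fold change. Medians over all probe sets lay between 5.31 and 5.39 on the 6 arrays. Across 18404 genes, Pearson r was 0.991 between the H1299 controls and 0.997 between the H2009 controls. The shPTK7-2 array reached 0.983 and 0.985 with the controls of H1299, and 0.986 and 0.988 with those of H2009. Between lines r ran from 0.912 to 0.921. The lines differed in their epithelial genes: EPCAM, an epithelial adhesion molecule, lay between 3.32 and 3.58 on the H1299 arrays and between 11.17 and 11.30 on those of H2009, and CDH1, the epithelial cadherin, between 3.92 and 4.19 and between 11.17 and 11.43. H1299 thus lacked both of these markers, while the keratin gene KRT18 was at 10.56 or more on all 6 arrays. The leukocyte marker PTPRC was at 2.85 to 3.01 on all 6. No member of the leukocyte, fibroblast, endothelial or line identity lists (11, 13, 12 and 9 measured) passed the test between shPTK7-2 and controls.

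PTK7 itself was lower on the shPTK7-2 array than on both controls in each line. In H1299 the log2 level was 5.73 with shGFP, 6.03 with shLUC and 5.53 with shPTK7-2, and in H2009 it was 6.64, 6.86 and 5.94. The shPTK7-2 level left 78.3% of the control signal in H1299 and 57.1% in H2009, or 66.9% averaged on the log scale. The averaged difference of -0.58 ± 0.16 (standard error of the fit) missed the threshold (limma, p adjusted over all genes = 0.115). An exact two-sided permutation test within lines gave p = 0.111, the smallest that its 9 arrangements allow. By size, PTK7 ranked 639 among the lower genes. Its single probe set (8119689) read between 5.53 and 6.86 on the 6 arrays. With shPTK7-1 the level was 5.63 in both lines, and the hairpins did not differ detectably (0.10 ± 0.22, limma adjusted p = 0.911).

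**Figure D1:**
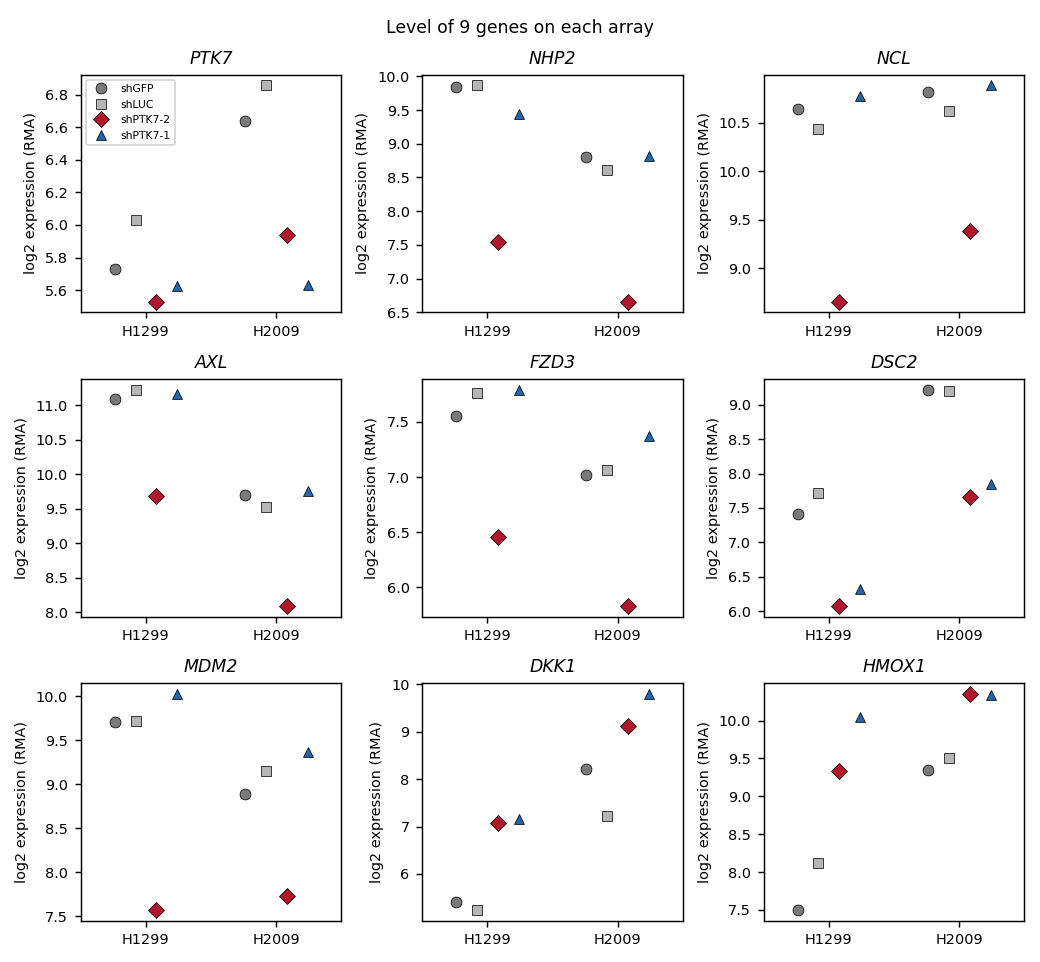
Log2 expression of PTK7 and 8 other genes on each array (y axis), by line (x axis), with 1 point per array and the hairpin given by symbol and colour; the scales differ between panels and do not start at 0. The shPTK7-2 diamonds lie below both controls for PTK7, NHP2, NCL, AXL, FZD3, DSC2 and MDM2 and above both for DKK1 and HMOX1; shPTK7-1 lies nearer to the controls than to shPTK7-2 for NHP2, NCL, AXL, FZD3 and MDM2.

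Across the lines 387 of 18404 genes differed between shPTK7-2 and the controls, and most of them were lower: 68 were higher (0.369% of the genes) and 319 lower (1.73%). The test was limma on knockdown plus line, with Benjamini-Hochberg adjustment and a threshold of 0.05, and 3169 genes had an unadjusted p under 0.05. A second fit, called the block below, held hairpin in place of knockdown, beside the line, and set shPTK7-2 against the mean of the control hairpins. In it 219 genes passed, 37 higher and 182 lower, of which 203 were among the 387. The block takes the shGFP minus shLUC difference out of the spread, so it is no check on variation between hairpins. The count fell to 72 without the shGFP array of H1299, 165 without its shLUC array and 82 without its shPTK7-2 array, and to 70 and 73 without the shGFP and shLUC arrays of H2009. Without the shPTK7-2 array of H2009 it was 574, the count for H1299 alone, and 52.4% of these were lower. None of the 387 genes changed sign in any of these fits.

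All 68 higher and all 319 lower genes had the shPTK7-2 array beyond both controls in each line. Among all genes, 18.1% had this separation upward and 15.2% downward, and a gene that passes the test will usually have it. The higher genes had a median difference of 0.86, with 21 at 2-fold or more, and the lower genes one of -0.89, with 110 at 2-fold or more. Over all 18404 genes tested the median was 0.04, with 10623 differences positive and 7781 negative. Lower genes were bright genes: their median control level was 8.38, against 6.98 for the higher genes and 6.33 for all. A control level under 5 was seen for 1 of the 319 lower and 3 of the 68 higher genes, beside 6129 of 18404 over all. A gene near the array's floor has little room to fall, so this contrast is in part set in advance. The annotation listed 311 of the 319 lower and 62 of the 68 higher genes as protein coding, beside 16897 of all 18404 genes.

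**Figure D2:**
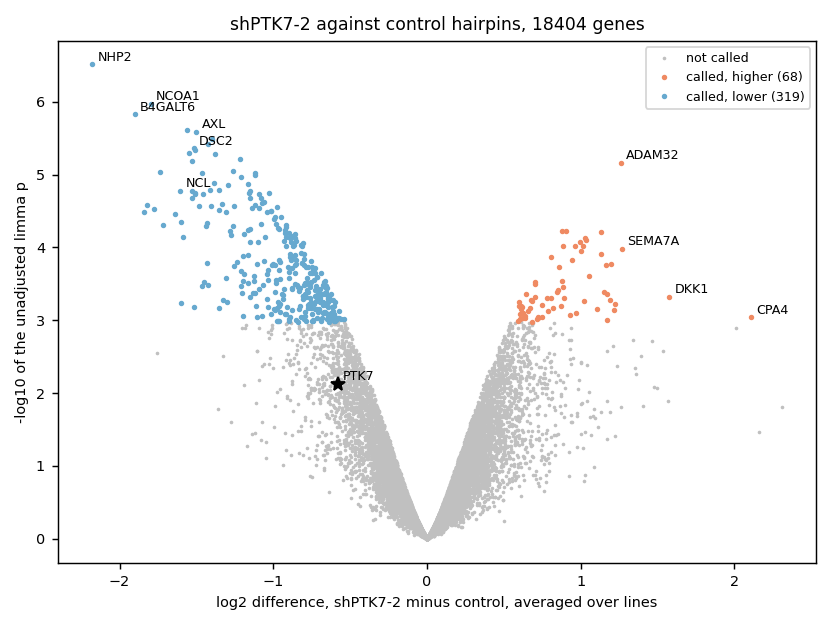
Each point is 1 of 18404 genes, with the averaged log2 difference of shPTK7-2 minus control on the x axis and -log10 of the unadjusted limma p on the y axis; coloured points passed the adjusted threshold. The 319 lower genes reach smaller p-values than the 68 higher ones, with NHP2 at the top left, and PTK7 (star) lies below the genes that passed.

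The largest decrease was that of NHP2, a protein of the H/ACA particles that guide pseudouridine into RNA and of telomerase. Its level in H1299 was 9.84 with shGFP, 9.87 with shLUC and 7.55 with shPTK7-2, and in H2009 it was 8.80, 8.61 and 6.66. The fall was 4.53-fold, at -2.18 ± 0.12 (limma adjusted p = 0.0057), and the control arrays of each line lay close together. A second probe set of NHP2 averaged -1.89. Whether the brighter one, used here, also reads a processed copy of the gene was not tested. NCL, the abundant nucleolar protein nucleolin, stood at 10.64, 10.43 and 8.66 in H1299 and at 10.81, 10.63 and 9.39 in H2009, a 3.04-fold fall (-1.60 ± 0.16, adjusted p = 0.0101). MDM2, a ubiquitin ligase, stood at 9.70, 9.72 and 7.57 in H1299 and at 8.88, 9.15 and 7.73 in H2009 (-1.72 ± 0.20, adjusted p = 0.0139). For these genes the shPTK7-2 array lay more than 1 log2 unit below the lower control in each line.

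B4GALT6, a lactosylceramide synthase of the Golgi, fell by 1.90 on the log2 scale, GALNT1, which starts mucin-type O-glycans, by 1.73, and SERPINH1, the collagen chaperone HSP47, by 1.78. NCOA1, a coactivator of nuclear receptors, fell from 8.42 and 8.19 to 6.58 in H1299 and from 8.33 and 8.43 to 6.51 in H2009, with an averaged difference of -1.80 ± 0.12. ELOA, a subunit of the elongation factor Elongin, fell by 1.64 and NKAP, a nuclear regulator of transcription and splicing, by 1.60. PPIL1, a prolyl isomerase of the spliceosome, fell by 1.82, and STYX, a catalytically inactive phosphatase relative, by 1.84. IL1R1, the signalling receptor of interleukin-1, stood at 5.57, 5.68 and 4.64 in H1299 and at 6.78, 7.21 and 4.77 in H2009 (-1.60 ± 0.27, adjusted p = 0.0388, and 0.0589 with the block). These 12 were the largest decreases among genes that passed. With each array left out in turn, 7 of them passed in all 6 fits: NHP2, B4GALT6, PPIL1, NCOA1, SERPINH1, GALNT1 and NCL. IL1R1 passed in 1 fit, without the shPTK7-2 array of H1299, and the adjusted p otherwise reached 0.100.

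Among increases that passed, CPA4, a secreted carboxypeptidase, had the largest difference and a wide spread between controls. Its level was 4.86, 6.26 and 8.03 in H1299 and 5.60, 5.01 and 7.05 in H2009 with shGFP, shLUC and shPTK7-2, a difference of 2.11 ± 0.39 (adjusted p = 0.0478, and 0.0683 with the block). ADAM32, a member of the ADAM family of membrane proteins, had the lowest adjusted p of the 12 largest increases, with 3.69, 3.72 and 4.99 in H1299 and 4.22, 4.05 and 5.38 in H2009 (1.26 ± 0.11, adjusted p = 0.0091). Its control level was low, where the array compresses differences. SEMA7A, a membrane-anchored semaphorin that binds integrins, rose 2.41-fold, from 6.43 and 6.14 to 7.79 in H1299 and from 7.87 and 7.58 to 8.75 in H2009.

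The others among the 12 largest increases lay between 1.15 and 1.57. They were DKK1 and HMOX1 (given with their gene groups), AOX1, an aldehyde oxidase (1.22), EFR3B, a plasma membrane scaffold for a lipid kinase (1.20), PEAR1, an EGF-repeat receptor of platelets and endothelium (1.19), TMEM255A (1.17), the tetraspanin CD82 (1.17), the collagen gene COL12A1 (1.17) and the mitochondrial carrier SFXN3 (1.15). With the hairpin as a block, AOX1 and CD82 did not pass (adjusted p = 0.0721 and 0.0790). The increases were less steady than the decreases when an array was left out: of these 12, only ADAM32 passed in all 6 fits, and AOX1, TMEM255A and SFXN3 passed in none. Of all 24 genes, 10 passed without the shGFP array of H1299, 14 without its shLUC array, 12 without its shPTK7-2 array, and 16, 14 and 17 without the corresponding arrays of H2009.

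**Figure D3:**
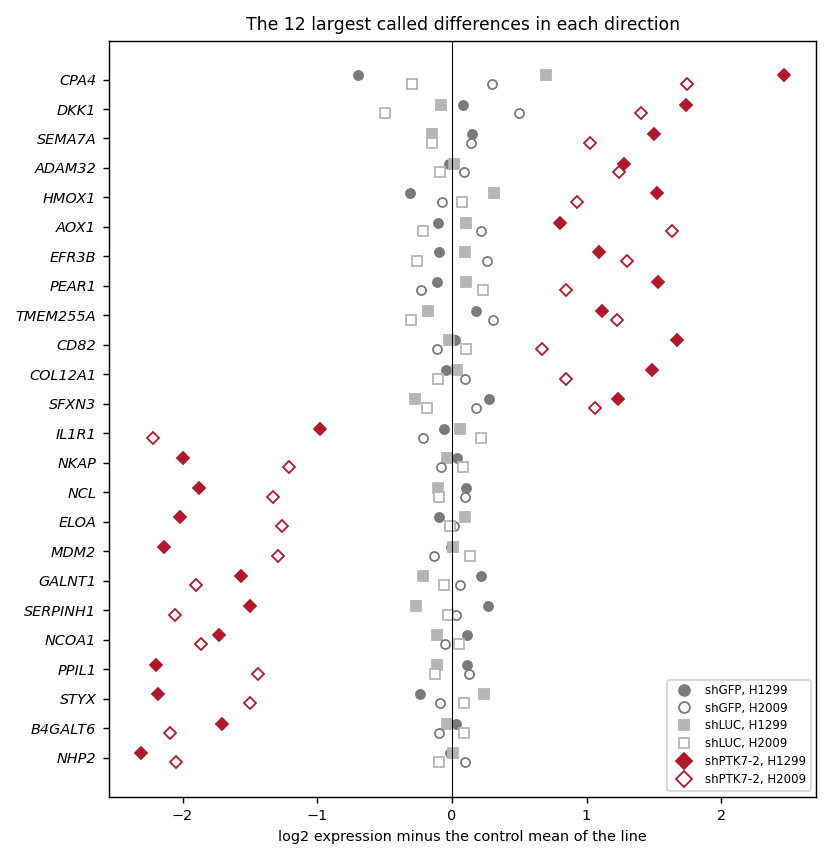
For the 12 largest increases and 12 largest decreases, each symbol is 1 array's log2 expression minus the control mean of its line (x axis); grey circles and squares are shGFP and shLUC, red diamonds shPTK7-2, filled for H1299 and open for H2009. The red diamonds lie beyond the controls in every row, as the choice of genes required, and the controls of CPA4 are spread most widely.

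In the planar cell polarity list, 2 of 25 measured members passed, both lower, and the list's median was -0.06. Over all genes, 0.369% were called higher and 1.73% lower, the background for each list count against controls below. FZD3, a Frizzled receptor of planar cell polarity in axon guidance, stood at 7.56, 7.77 and 6.46 in H1299 and at 7.02, 7.06 and 5.83 in H2009. It fell 2.31-fold (-1.21 ± 0.11, adjusted p = 0.0100), by the same amount in both lines, and passed in all 6 fits with an array left out. ROR1, a receptor of WNT5A, stood at 6.84, 7.27 and 6.13 in H1299 and at 9.36, 8.93 and 8.11 in H2009 (-0.98 ± 0.17, adjusted p = 0.0418). ROR1 did not pass with the block (0.0756) or in any fit with an array left out, where its adjusted p ran from 0.0591 to 0.117. ANKRD6, the Diversin homologue, was at -0.59 (0.0897).

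Of 14 canonical Wnt targets, DKK1 passed. Averaged differences were positive for 11 of these targets, beside 10623 of 18404 over all genes. The list's median was 0.16 in the average, -0.06 in H1299 and 0.39 in H2009. DKK1, a secreted inhibitor of the LRP co-receptors and itself a target of the pathway, stood at 5.41, 5.24 and 7.06 in H1299 and at 8.21, 7.22 and 9.12 in H2009, a 2.98-fold rise (1.57 ± 0.26, adjusted p = 0.0367). The H2009 controls of DKK1 differed by nearly 1 log2 unit, and it passed in 1 of 6 fits with an array left out, that without the H2009 shGFP array, with an adjusted p of up to 0.140 in the rest. The feedback gene AXIN2 was at 0.28 (0.259) and CCND1, which encodes cyclin D1, at 1.39 ± 0.32 (0.0820, and 0.0387 with the block).

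Genes downstream of YAP and TAZ, the effectors that Hippo signalling restrains, went both ways. Of 24 members AXL fell and WWC1 rose, and the median was 0.08 in the average, 0.35 in H1299 and -0.15 in H2009. AXL, a receptor tyrosine kinase bound by GAS6, stood at 11.10, 11.23 and 9.68 in H1299 and at 9.70, 9.53 and 8.10 in H2009 (-1.50 ± 0.11, adjusted p = 0.0089, passing in all 6 fits with an array left out). WWC1, the Hippo activator KIBRA, rose from 7.69 and 7.79 to 8.89 and from 7.64 and 7.59 to 8.40 (0.96 ± 0.12, adjusted p = 0.0167, passing in 2 of those 6 fits, without the H1299 shLUC or the H2009 shPTK7-2 array). ANKRD1, a muscle repeat protein widely used as a YAP readout, had a large difference and a wide control spread, with 7.70, 8.73 and 11.02 in H1299 and 5.0, 4.99 and 6.22 in H2009. At 2.01 ± 0.39 it did not pass (0.0533).

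None of the 20 genes of ERK pathway output passed. Positive differences were seen for 14 of them, beside 10623 of 18404 over all genes, and the list's median was 0.35. The receptor gene EPHA2 was at 0.70 (adjusted p = 0.0590), the phosphatase gene DUSP5 at 0.68 (0.0723) and the ETS factor gene ETV1 at 0.63 (0.0929). None of 12 EGF family ligands and receptors and none of 11 AP-1 factors passed. EGFR was at -0.61 (0.0779), the ligand gene HBEGF at 1.13 (0.175) and the AP-1 partner gene MAFF at 0.52 (0.0722). In the TGF-beta and BMP list, 2 of 23 members passed, both lower, beside 319 of 18404 (1.73%) over all genes. The list's median was 0.16 in the average, 0.21 in H1299 and -0.29 in H2009. Genes of these pathways outside the list were also called, among them BMP8B (-0.92), ZFYVE9 (-0.78) and TGIF1 (-0.63), named after their values were seen. TGFBR2, the receptor that binds TGF-beta, fell from 8.80 and 8.78 to 8.11 in H1299 and from 9.16 and 9.13 to 8.45 in H2009 (-0.69 ± 0.10, adjusted p = 0.0266, and 0.0589 with the block). SMAD1, which carries BMP signals, fell from 7.67 and 7.73 to 7.04 and from 7.06 and 7.23 to 6.24 (-0.78 ± 0.12, adjusted p = 0.0292, and 0.0503 with the block). Neither passed with an array left out, where the adjusted p ran from 0.0501 to 0.111.

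In the desmosome list, 1 of 13 members passed. Junction genes outside the list were also called, among them CTNNA1 (-1.26, adjusted p = 0.0140) and PERP (-1.12, adjusted p = 0.0285), both named after their values were seen. DSC2, the desmosomal cadherin desmocollin 2, stood at 7.42, 7.72 and 6.08 in H1299 and at 9.22, 9.19 and 7.66 in H2009, a 2.87-fold fall (-1.52 ± 0.12, adjusted p = 0.0089) that passed in all 6 fits with an array left out. Desmoplakin, DSP, was at -0.45 (0.112) and plakoglobin, JUP, at 0.45 (0.348). Of 21 integrin and basement membrane genes, ITGA5, the alpha chain of the fibronectin receptor, rose from 9.22 and 9.16 to 9.83 in H1299 and from 9.43 and 9.30 to 10.13 in H2009 (0.71 ± 0.11, adjusted p = 0.0309). It did not pass with the block (0.0587) or with an array left out (0.0656 to 0.115). No gene passed among 19 epithelial, 18 mesenchymal and 27 actin regulator genes or among 15 lung lineage and 11 neuroendocrine genes. Within these, CLDN1 was at 0.44 (0.120), CDH2 at 0.63 (0.180) and the lung lineage factor gene NKX2-1 at -0.79 (0.191). Actin regulators outside the list were called, among them ENAH (-1.19), SSH3 (-0.67) and ARHGAP26 (1.00), named after their values were seen.

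The machinery that uses small RNAs held 2 decreases among 14 members, beside 319 of 18404 (1.73%) over all genes, with a median of -0.09. AGO1, an Argonaute, stood at 9.71, 9.52 and 8.40 in H1299 and at 8.86, 8.89 and 7.76 in H2009 (-1.17 ± 0.11, adjusted p = 0.0101), and it passed in 5 of 6 fits with an array left out (0.0528 without the H1299 shPTK7-2 array). DICER1 stood at 10.51, 10.58 and 9.66 in H1299 and at 8.78, 8.94 and 8.15 in H2009 (-0.80 ± 0.11, adjusted p = 0.0234), passing in 1 of those fits, without the H2009 shPTK7-2 array, with up to 0.0894 in the rest. AGO4 was at -0.54 (0.0682) and AGO2, the Argonaute that slices its target, at 0.32 (0.241). Genes of silencing and RNA decay outside the list were also called, named after their values were seen. Among them were MOV10 (-0.86), PAN3 (-1.09), CNOT9 (-0.80), CNOT1 (-0.68) and EDC3 (-0.65). Of 29 interferon-stimulated genes, which can respond to double-stranded RNA, none passed and the median was -0.02 in the average, 0.13 in H1299 and -0.29 in H2009. MX1 was at -0.45 (0.259), IRF7 at 0.49 (0.0903), and IFI44L at -0.06 in H1299 and -2.10 in H2009 (0.951 and 0.0709).

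Of the list genes, NHP2 and NCL were the 2 of 16 nucleolar and snoRNP proteins that passed, beside 319 of 18404 genes (1.73%) called lower. The median of that list was 0.01. NPM1, nucleophosmin, was at -0.44 (0.0845) by its brightest probe set and at -0.95 by another bright one, and NOLC1 at -0.46 (0.0907). Genes of the nucleolus or Cajal body outside this list were also called, named after their values were seen. Among them SDAD1 (-1.12), NOL7 (-1.11), COIL (-0.92), PAK1IP1 (-0.74) and NAT10 (-0.67) were lower and SIRT7 (0.75) was higher. The 30 measured members of the cytosolic ribosomal protein list held no call and had a median of -0.09. Of these members 23 were negative, beside 7781 of 18404 over all genes. RPL29, a ribosomal protein gene outside that list and named after its values were seen, was called lower (-1.01, adjusted p = 0.0453).

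Of 17 BCL2 family genes, BCL2L1, whose long form BCL-XL protects from apoptosis, rose from 10.07 and 9.75 to 10.99 in H1299 and from 10.13 and 9.71 to 10.95 in H2009, 2.08-fold (1.05 ± 0.16, adjusted p = 0.0285). BCL2L1 did not pass with an array left out (0.0515 to 0.101). The effector gene BAK1 was at 0.83 (0.0571, and 0.0390 with the block) and BCL2L11, which encodes the activator BIM, at -0.88 (0.0634). The lists of G1 and mitosis genes held 1 decrease each. CDK6, a cyclin D kinase, fell from 9.70 and 10.01 to 8.59 in H1299 and from 8.08 and 8.16 to 7.48 in H2009 (-0.95 ± 0.17, adjusted p = 0.0436, and 0.0676 with the block), as 1 of 20 G1 genes. INCENP, the scaffold of the chromosomal passenger complex, fell by 0.84 ± 0.13 in the average (adjusted p = 0.0321), as 1 of 27 mitosis genes. CDK6 passed in 1 of 6 fits with an array left out (without the H2009 shPTK7-2 array, and up to 0.129 in the rest) and INCENP in none (0.0501 to 0.102). Of 30 DNA replication genes none passed, with FEN1 at -0.64 (0.0923) and MCM6 at -0.48 (0.0983). Replication and mitosis genes outside these lists were also called, named after their values were seen. Among them were the replication gene TICRR (-0.80) and the mitosis genes NCAPG2 (-1.23) and CDC23 (-0.88). H2BC12 was lower, at -0.79 (0.0436, and 0.0788 with the block), as 1 of 14 clustered histone genes, whose near-identical copies leave probe signals hard to assign. H4C14, a histone gene outside that list and named after its values were seen, was also called lower (-0.65, adjusted p = 0.0481).

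The unfolded protein and integrated stress response held 3 increases among 29 members, beside 68 of 18404 (0.369%) over all genes, with a median of 0.12. DDIT3, the transcription factor CHOP, stood at 8.12, 8.32 and 9.29 in H1299 and at 7.20, 7.21 and 7.84 in H2009 (0.86 ± 0.14, adjusted p = 0.0335). HERPUD1, a component of the degradation machinery of the endoplasmic reticulum, stood at 9.54, 9.60 and 10.33 and at 8.96, 8.91 and 9.44 (0.63 ± 0.11, adjusted p = 0.0446). VLDLR, a lipoprotein receptor listed as a target of the stress factor ATF4, stood at 7.85, 7.68 and 8.42 and at 7.35, 7.33 and 7.90 (0.60 ± 0.11, adjusted p = 0.0451). None of them passed with the block (0.0606, 0.0850 and 0.0800). With an array left out, DDIT3 and HERPUD1 passed in 1 of 6 fits, without the H2009 shPTK7-2 array, and VLDLR in none, with adjusted p of up to 0.101, 0.145 and 0.152. EDEM1 was at 0.51 (0.122).

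The promoters of HERPUD1 and DDIT3 are shown because they hold a shortened form of an element known for this response, the ER stress response element, bound by NF-Y and ATF6. The full consensus, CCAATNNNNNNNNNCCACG, was in neither promoter, and 17 of 14230 promoters (0.119%) held it, with 0 of 54 higher genes and 1 of 269 lower genes (0.372%). The shortened form was searched as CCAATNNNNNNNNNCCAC, which is its consensus without the last base, together with ER stress response element II as a second form, on both strands of the 250 bases before each gene's start. Sequences are from RefSeq (GRCh38.p14), in the direction of the gene, with matches in capitals. HERPUD1 (chr16:56931892-56932141, plus strand) holds the first form 83 bases and the second 117 bases before the start. DDIT3 (chr12:57520515-57520764, minus strand) holds the first form 100 bases before it.
HERPUD1 promoter: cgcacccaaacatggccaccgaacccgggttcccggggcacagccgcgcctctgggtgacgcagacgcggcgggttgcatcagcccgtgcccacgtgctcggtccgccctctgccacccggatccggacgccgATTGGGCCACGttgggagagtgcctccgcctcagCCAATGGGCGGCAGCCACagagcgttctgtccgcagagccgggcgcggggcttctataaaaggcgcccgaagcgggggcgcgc
DDIT3 promoter: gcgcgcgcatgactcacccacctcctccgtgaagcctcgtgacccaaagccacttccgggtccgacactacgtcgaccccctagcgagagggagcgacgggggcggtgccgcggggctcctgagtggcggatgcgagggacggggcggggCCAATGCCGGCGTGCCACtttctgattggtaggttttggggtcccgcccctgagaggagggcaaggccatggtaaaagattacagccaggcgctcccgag
No match was found in the window of VLDLR. Among the promoters of 14230 tested genes, 47 (0.33%) held the first form and 12 (0.0843%) the second. Of 54 higher genes with a promoter, 2 (3.7%) held the first form, namely this pair, and of 269 lower genes 2 (0.743%) did. These motif versions were chosen after the letters of the windows had been read, so the counts are a description.

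Among 22 NRF2 targets, HMOX1, the enzyme that degrades haem, was the only member to pass. It stood at 7.50, 8.12 and 9.33 in H1299 and at 9.35, 9.50 and 10.36 in H2009, a 2.34-fold rise (1.22 ± 0.21, adjusted p = 0.0402). HMOX1 passed in 1 of 6 fits with an array left out, without the H2009 shPTK7-2 array (up to 0.145 in the rest). GCLM, a subunit of the enzyme that limits glutathione synthesis, was at 0.69 (0.125) and ME1 at -0.54 (0.140), and the list's median was 0.11. Of 21 NF-kB targets and cytokines, TNFAIP3, the feedback inhibitor A20, rose from 6.48 and 6.77 to 8.03 in H1299 and from 7.79 and 7.32 to 8.36 in H2009 (1.10 ± 0.19, adjusted p = 0.0421, and 0.0734 with the block). TNFAIP3 passed in 2 of 6 fits with an array left out, those without the shGFP or shPTK7-2 array of H2009, and reached 0.147 in the others. In this list 17 members were positive, beside 10623 of 18404 over all genes. ICAM1 was at 0.93 (0.0740) and PTGS2 at -0.51 (0.0889).

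The lists of lipid and energy genes held 1 call. SC5D, a desaturase late in cholesterol synthesis, fell from 9.97 and 10.27 to 9.25 in H1299 and from 10.06 and 10.29 to 9.38 in H2009 (-0.83 ± 0.13, adjusted p = 0.0343, but 0.0657 to 0.110 with an array left out). Of the 17 cholesterol synthesis genes 13 were negative, beside 7781 of 18404 over all genes, and the list's median was -0.23. That median was -0.42 in H1299 and 0.07 in H2009, and the mean level of the list on the H1299 controls was 8.60 with shGFP and 9.13 with shLUC. MSMO1 stood at 9.84 and 10.91 on the H1299 controls, so that the control pair alone spanned about a doubling. No call was made among 13 fatty acid synthesis, 26 hypoxia and glycolysis and 28 oxidative phosphorylation genes. In the last pair 22 and 21 members were positive, beside 10623 of 18404 over all genes, with medians of 0.11 and 0.10. The 9 metallothioneins were all positive, from 0.13 to 0.50, without a call. Their copies are near-identical, so 1 signal may count several times.

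**Figure D4:**
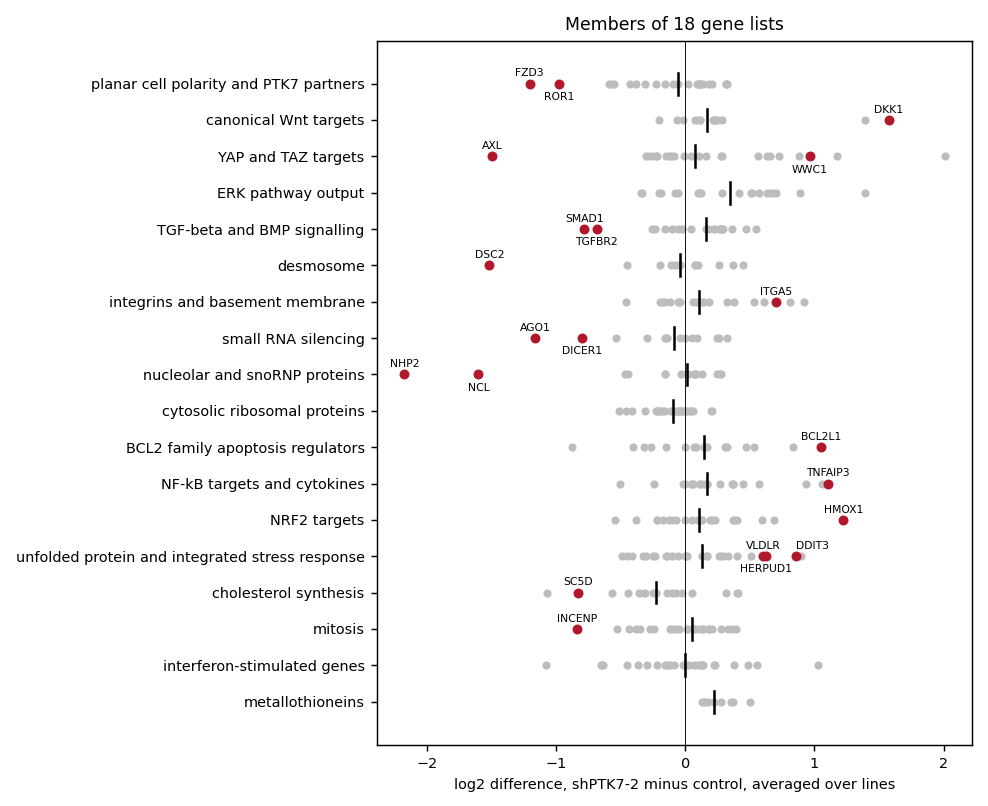
Each point is 1 gene of 18 gene lists (y axis), at its averaged log2 difference of shPTK7-2 minus control (x axis); red, labelled points passed the adjusted threshold and the black bar is the list's median. At most 3 genes of a list passed, and the list medians lie between -0.23 and 0.35, against 0.04 over all genes.

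Over all 36 gene lists, 656 of 703 listed genes were measured, and 24 of the genes counted within lists passed. This count was 6 and 8 without the shGFP and shLUC arrays of H1299, 11 without its shPTK7-2 array, and 9, 7 and 28 without those of H2009. The lists were chosen with results of these data known, and no list's count is evidence for its direction.

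A microRNA gene was also among the increases. The probe set of MIR193A, a gene named here after its values were seen, stood at 5.71, 5.84 and 6.99 in H1299 and at 5.43, 5.47 and 6.29 in H2009 (1.03 ± 0.13, adjusted p = 0.0153). The array reads RNA of the locus and not the mature molecules. The mature sequences are shown as the products this gene is known for, with the seed (bases 2 to 8) in capitals, from RefSeq (GRCh38.p14, plus strand, chr17:31560050-31560071 and chr17:31560016-31560037).
hsa-miR-193a-3p: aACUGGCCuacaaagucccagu
hsa-miR-193a-5p: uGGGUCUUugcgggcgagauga
Both arms come from the same hairpin and carry different seeds, so they do not form a seed group.

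In each line alone, 1 shPTK7-2 array stood against 2 controls, and the spread came from the control pairs of both lines. In H1299, 574 genes passed (3.12%), 273 higher and 301 lower, and in H2009 82 passed (0.446%), 13 higher and 69 lower. These counts were not stable: the H1299 count was 68 without either H2009 control and 2082 and 1931 without the H1299 shGFP or shLUC array, and the H2009 count was 0 without either of its own controls and 1788 without either H1299 control. Tested directly, H1299 minus H2009 differences gave 0 calls (limma, lowest adjusted p = 0.0985, with 3123 at an unadjusted p under 0.05), but 589 without the H1299 shGFP array and 201 without the H1299 shLUC array. Among the 387 genes, the difference was larger in H1299 for 51 of the 68 higher and 189 of the 319 lower genes. Over all genes tested it was larger in H1299 for 8688 of 18404. The medians were 0.93 in H1299 and 0.73 in H2009 for the higher genes, and -0.92 and -0.83 for the lower.

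The genes with the smallest unadjusted p for a difference between lines are given as values. OR7E19P, an olfactory receptor pseudogene with many copies in the genome, stood at 4.76, 4.46 and 8.95 in H1299 and at 4.34, 4.02 and 4.16 in H2009. SLCO1B3, an organic anion transporter, stood at 3.13, 3.21 and 5.73 and at 2.70, 2.62 and 2.93. COX8C, a cytochrome oxidase subunit isoform, was at 2.80 in H1299 and 0.33 in H2009, TMEM31 at 2.15 and -0.02, and APOLD1 at 1.77 and -0.36. On the other side SLC7A2, a transporter of cationic amino acids, was at -2.44 in H1299 and -0.11 in H2009, SNORD15A at -1.95 and 0.42, YARS1, the tyrosyl-tRNA synthetase, at -1.81 and -0.37, TNFSF15 at -0.63 and 1.24, and the cytokine gene IL1A at 0.14 and 1.98. Their adjusted p for the difference between lines ran from 0.0985 to 0.127.

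**Figure D5:**
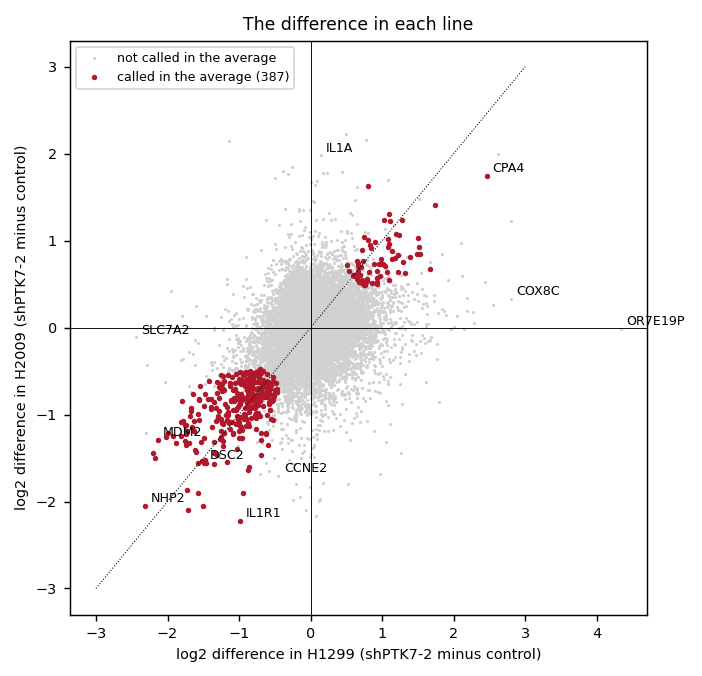
Each point is 1 gene, with the log2 difference of shPTK7-2 minus control in H1299 on the x axis and in H2009 on the y axis; red points are the 387 genes that passed in the average and the dotted line marks equal differences. Red points lie in the quadrants of like sign, as selection on the average favours, and genes such as OR7E19P, COX8C and SLC7A2 lie along the H1299 axis.

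Set directly against shPTK7-1, in a fit of hairpin plus line over all 8 arrays, shPTK7-2 differed in 686 genes: 329 were higher (1.79%) and 357 lower (1.94%). With only the 4 arrays of the PTK7 hairpins, 433 genes passed. This comparison shares its shPTK7-2 arrays with the one against controls, so a gene called in both is no independent repeat. Of the 319 genes lower than controls, 190 (59.6%) were also lower than with shPTK7-1, and of the 68 higher genes 19 (27.9%) were also higher. None passed in the opposite direction. The shPTK7-1 arrays stood at a median of -0.06 from the controls for the 319 genes and at 0.24 for the 68.

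The leading decreases stood differently with shPTK7-1. NHP2, NCL, MDM2, AXL, FZD3, B4GALT6, PPIL1, NCOA1, SERPINH1, ELOA and NKAP were all lower with shPTK7-2 than with shPTK7-1, with differences from -2.42 to -1.44 (limma adjusted p from 0.0063 to 0.0144). For NHP2 the shPTK7-1 arrays read 9.45 in H1299 and 8.82 in H2009, and for AXL 11.16 and 9.75, near the controls. Of the 12 largest decreases, STYX (-0.93, 0.0546), GALNT1 (-0.75, 0.0989) and IL1R1 (-0.45, 0.521) did not pass against shPTK7-1. Among smaller decreases, DSC2 read 6.32 and 7.85 with shPTK7-1, SMAD1 6.76 and 6.04 and DICER1 9.44 and 8.27, below both controls of each line. The hairpins did not differ detectably for DSC2 (-0.22 ± 0.14, adjusted p = 0.506), SMAD1 (0.436) or DICER1 (0.953), nor for the increases of DKK1 (-0.39 ± 0.22, 0.433), HMOX1 (0.694), DDIT3 (0.910) and HERPUD1 (0.926). A p that misses the threshold does not show that the hairpins act alike. Among increases, SFXN3 (1.70, 0.0063), ADAM32 (1.08, 0.0102), TNFAIP3 (1.20, 0.0334) and WWC1 (1.10, 0.0144) were higher with shPTK7-2 than with shPTK7-1.

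By smallest unadjusted p, the leading genes below shPTK7-1 were B4GALT6 (-2.42), WWC2 (-2.01), HABP4 (-1.95), LIPA, the lysosomal acid lipase (-1.87), and MLEC, a lectin of the endoplasmic reticulum (-1.69), and all 5 were also lower than the controls. Those above it were CFL2, the muscle cofilin (1.84), the glycerol phosphate dehydrogenase gene GPD2 (1.81), SPG21 (1.75), ESYT1, a lipid transfer protein at membrane contacts (1.66), and PPP3CA, the catalytic subunit of calcineurin (1.56). For these 5 none passed between shPTK7-2 and the controls. SPG21, for example, read 10.34, 10.29 and 10.27 with shGFP, shLUC and shPTK7-2 in H1299 and 8.36 with shPTK7-1, and 10.21, 10.19, 10.24 and 8.64 in H2009. Among the list genes, 5 of 9 metallothioneins and 4 of 27 actin regulators were higher than with shPTK7-1, beside 329 of 18404 (1.79%) over all genes. They included MT1X (1.63, 0.0116) and CSRP1 (1.67, 0.0111). No member of either list passed against the controls, and the list means with shPTK7-1 lay below both controls. With shGFP, shLUC, shPTK7-2 and shPTK7-1 the metallothionein mean was 7.58, 7.76, 7.90 and 7.11 in H1299 and 8.18, 8.24, 8.50 and 7.73 in H2009. The actin mean was 9.92, 9.88, 10.09 and 9.69 in H1299 and 9.82, 9.76, 9.82 and 9.59 in H2009.

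As a background, the control hairpins were set against each other in the same 6 arrays. The test called 0 genes between shGFP and shLUC (limma, lowest adjusted p = 1.00), and 596 had an unadjusted p under 0.05, against 3169 between shPTK7-2 and the controls. These comparisons set 2 arrays against 2 and 2 against 4, so the counts do not compare directly. Within the 387 genes the median size of the shGFP minus shLUC difference was 0.11 for the higher and 0.09 for the lower genes. The largest value was 0.72, and the median over all genes tested was 0.10. In the fit that chose the 387 genes this difference is part of the spread, so selection favours small values. The sizes are therefore a description and no separate check on the 387 genes.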

How the data were processed

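Total RNA was labelled with biotin and measured on Affymetrix arrays, 1 per hairpin and line. The deposited values are log2 expression per probe set, for which the submitters' processing notes name RMA and R 2.14.0. RMA corrects background, normalizes between arrays and summarises probe sets. The annotation build was not given in the sources used here. Of 32321 probe sets, 19158 had 1 gene symbol, 1388 several and 11775 were not listed; 19128 matched the gene table by gene ID and 0 symbols needed an update. For 637 genes read by several probe sets the brightest was used, giving 18404 genes. The number of arrays limits the precision.

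limma 3.58.1 (R 4.3.3) fitted knockdown plus line on 6 arrays, a mean per group for single lines and their difference, and hairpin plus line for comparisons of hairpins, with Benjamini-Hochberg adjustment over all genes at 0.05. Values after ± are standard errors of the fit. The hairpins pair the lines, as the labels state, and the shGFP minus shLUC differences of the lines correlated with r = 0.230 over genes. A fit with hairpin in place of knockdown, called the block, was added. Scripts were tested on simulated data. Named were PTK7, up to 12 genes per direction by size among those past the threshold with shPTK7-2 beyond both controls in each line, up to 5 per direction for the line and hairpin differences and the 4 members of a list with the lowest unadjusted p. The comparison, lists and rule were chosen with earlier results of these data known. Figures used matplotlib 3.10.9 in Python 3.11.15.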

Additional observations from a re-analysis of the deposited data

Results flagged for a closer look

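Between shPTK7-2 and shPTK7-1, hairpins against the same gene, 686 of 18404 genes differed by a direct test (limma, hairpin plus line over 8 arrays, 329 higher and 357 lower with shPTK7-2). This result is listed because groups given the same knockdown differed under a test of the difference itself. On the log2 scale the difference of shPTK7-2 minus shPTK7-1 was -2.03 for NHP2 and -1.57 for AXL, both past the threshold, and 0.10 for PTK7, which did not pass (adjusted p = 0.911).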

How the results depend on the processing

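The fit of shPTK7-2 against controls called 387 genes. As totals of other fits, the count was 1054 with a mean per group, 219 with the hairpin as a fixed term (replicate block), 1781 with the hairpin as a random block (whose estimated correlation was -0.365), 166 with every probe set and 172 against shGFP alone, with a range of 70 to 574 when each array was left out. Against shLUC alone 64.7% of calls were lower, and with a mean per group 65.2%. Of the 24 named genes 20 passed under the block, and 10 to 17 when an array was left out. The total of calls within lists, 24, ran from 6 to 28 when an array was left out. PTK7 (-0.58) passed with the random block (limma adjusted p = 0.0377). The negative correlation narrows the standard error of a difference between hairpins, so passing there is no check on the main fit. The H1299 count of 574 ran from 68 to 2082 with a control array left out. In H2009 the count of 82 was 15 with quantile normalization, 0 without the dimmest 40% of genes and 130 with a trended prior, and ran from 0 to 1788 with a control array left out. The difference between lines gave 2 calls with a trended prior and 0 to 589 with a control array left out. shPTK7-2 against shPTK7-1 gave 433 calls with only the 4 arrays of these hairpins. Reversed were values near 0: GPD2 at -0.0467 and PPP3CA at -0.0492 without the H1299 shPTK7-2 array, and SPG21 at 0.0032 with cyclic loess, 0.0140 against shLUC alone, 0.0154 without the H1299 shGFP array and 0.0424 without the H1299 shPTK7-2 array. Over all fits with an array left out, these reached 0.303 for GPD2, 0.195 for PPP3CA and -0.0470 for SPG21. The cause was not tested. For 55 single genes, 1044 values comprised 801 with the same call, 215 weaker, 22 stronger and 6 reversed. All other counts stayed within 1.5 times of the main ones. On these arrays small differences of dim genes are compressed, and the number of arrays limits what can be seen.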

Other observations

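The genes below were picked from the 387 after their values were seen, so they are a description and test no theme. Next to WWC1, which rose, its paralogues WWC2 and WWC3 fell, by 1.06 and 1.00 on the log2 scale, and MOB1B, the kinase adaptor of the Hippo pathway, fell by 0.66. WWC3 stood at 5.65, 5.85 and 4.88 with shGFP, shLUC and shPTK7-2 in H1299 and at 7.86, 8.16 and 6.88 in H2009. Genes of pericellular proteolysis and guidance rose: PLAU, urokinase, by 0.94, its receptor gene PLAUR by 0.70, the proprotein convertase gene FURIN by 0.91, SEMA3C by 1.01 and the adhesion molecule gene MCAM by 0.97. PLAU stood at 9.78, 9.57 and 10.58 in H1299 and at 10.06, 9.78 and 10.90 in H2009. BLVRB, which encodes biliverdin reductase B, rose by 0.78.

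Among decreases were chromatin genes: the genome organiser SATB1 (-1.59), the histone demethylase gene KDM1B (-1.46), the remodelling subunits CHD4 (-0.85) and SMARCC1 (-0.75), the methyltransferase gene SETDB1 (-0.67) and MEN1 (-0.78). Other chromatin genes rose, among them the deacetylase gene SIRT7 (0.75) and MBD1 (0.60), which encodes a protein that binds methylated DNA. The clock genes PER3, PER2 and BMAL2 stood at -1.20, -0.82 and -1.16. CTNNA1, which links cadherins to actin, fell by 1.26, ENAH, which extends actin filaments, by 1.19, and SRF, a transcription factor of actin genes, by 0.65. The A20 partner gene TNIP1 fell by 0.81, opposite to TNFAIP3. PIK3CB, a catalytic subunit of PI3-kinase, and MBOAT1, an acyltransferase of lysophospholipids, fell by 1.51 and 1.53, and neither differed detectably between the PTK7 hairpins (limma adjusted p = 0.178 and 0.720). Beside MIR193A, the small RNA gene VTRNA1-3 rose by 0.88 and the microRNA host transcript MIR22HG by 0.68.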
